A study of Mus musculus with 12 samples.

Results

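Bone marrow-derived dendritic cells exposed to poly(γ-glutamic acid) nanoparticles for 6 h were compared with cells at the start of the exposure, over all measured genes. The comparison rests on 6 of the 12 samples of the series, chosen by the time in the sample titles, with 3 samples at 6 h and 3 at 0 h. The other 6 were taken at 12 and 24 h, with 3 each. The cells at 6 h had been cultured with 300 µg/ml of the particles, which are made of a biodegradable polymer of glutamic acid (γ-PGA). The cells at 0 h stand for the same kind of culture before exposure. Both groups came from female mice of 6 to 8 weeks of age. In both, marrow cells had grown for 7 days with 20 ng/ml GM-CSF, and non-adherent or loosely adherent cells were taken as immature dendritic cells. The series design speaks of independent experiments, but no label ties a sample to an animal or a culture, so the p-values measure only the spread between these samples. No unexposed culture kept for 6 h was among the samples, so that exposure and time in culture cannot be told apart.

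Dendritic cells take up material from their surroundings and sense it with receptors for microbial and damage signals. When such receptors are engaged, NF-kB and MAP kinases switch on genes for cytokines and chemokines, and the cells stop dividing, reduce uptake and move towards lymph nodes, a change known as maturation. Marrow grown with GM-CSF gives a mixed culture in which dendritic cells lie beside macrophage-like cells and remaining granulocytes. RNA of such a culture is a bulk measure, in which fewer cells of a type and less RNA per cell cannot be told apart.

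Each sample was hybridised to a 1-colour Agilent mouse array, and 2 deposited sources hold values under its label. Whether both hold the same hybridisation is not known, and a comparison of single samples between them is given below. The scanner files hold the intensity of each spot, which was put on a log2 scale relative to the 75th percentile of the array and is called the log2 signal below. The value table that the authors deposited holds a ratio for each probe, relative to its median at 0 h. On each array 50.9% to 59.6% of spots stood well above background and 165 to 223 had saturated, while the 75th percentile of intensity ranged over 338.63 to 472.35. Precision is limited by how few arrays there are. The array of 6 h replicate 2 had 628 spots marked as outliers, against at most 42 on the others. Slide 1 held 6 h replicate 1 and the 3 arrays at 0 h, and slide 2 held 6 h replicates 2 and 3. A fit with the slide as a block therefore rests on 6 h replicate 1 alone at 6 h.

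The sources were set against each other, since they carry the labels of the same samples. The scanner change at 6 h correlated across 18403 genes with the change in the value table at 6 h (Pearson's r 0.729, Spearman's rho 0.697), at 12 h (0.644 and 0.589) and at 24 h (0.489 and 0.434). Since genes do not replicate each other, such values describe likeness and nothing more. Among the scanner arrays, r was 0.988 to 0.993 within 6 h, 0.995 within 0 h and 0.922 to 0.931 between 6 h and 0 h. The scanner arrays labelled 24 h lay close to those at 0 h, with r of 0.99 to 0.992, and against the table's change at 6 h their own change had an r of -0.00481. The 24 h arrays do not enter the difference between the means at 6 h and 0 h. They do share in the estimate of the spread and in the choice of probes. Of the 18403 genes, 1649 were well above background on all arrays of a group only at 12 h or 24 h. How far a single sample lay from the mean of its group was set against the same measure in the other source, which gave r of -0.0621 to 0.0914 for the samples at 6 h and -0.0147 to 0.0147 for those at 0 h. Changes shared by both sources are given first. They are not independent replications of each other.

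A gene was called changed when limma's adjusted p (Benjamini-Hochberg over all genes) was under 0.05 and the change was at least 2-fold. At 6 h against 0 h, 1216 of 18403 genes (6.61%) were called higher in both sources and 1447 (7.86%) lower in both, while 84 (0.456%) were called in opposite directions. Of the genes called in both, 8 of the higher and 21 of the lower were not well above background on any scanner array at 6 h or 0 h. The scanner values alone gave 1871 genes higher (10.2%) and 2929 lower (15.9%), and the value table alone 2438 higher (13.2%) and 2170 lower (11.8%). With quantile normalization of the value table the split turned to 1106 higher and 1591 lower. The 3 samples at 6 h lay outside the range of those at 0 h in both sources for 1203 of the genes higher in both and 1436 of those lower in both. When each of the 6 samples was left out in turn, 1065 and 1207 kept their call in both sources throughout. All 1216 and all 1447 had the same sign within slide 1, where 6 h replicate 1 is the only array at 6 h. The calls already used these arrays, so the shared sign cannot test an effect of the slide. Over all genes the log2 change had a median of -0.06 in the scanner values and 0.14 in the value table, and the median changes of gene groups below are to be read against these. Pairs of values with no source named are the scanner value and then the table value, errors are standard errors (SE) of the fit with n = 3 per group, and p-values are limma's adjusted p.

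**Figure D1:**
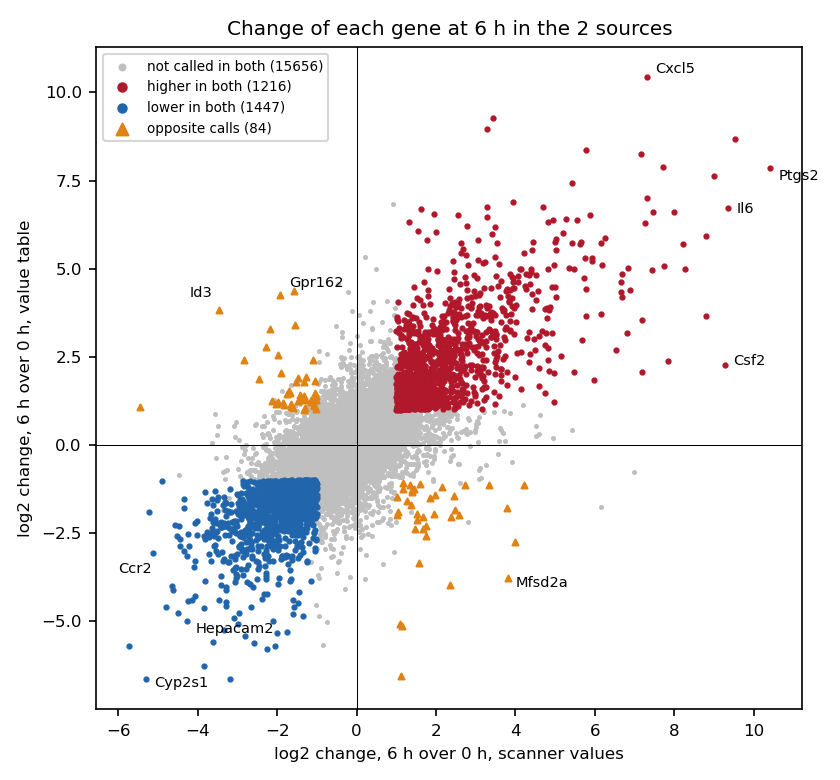
Log2 change of each of 18403 genes at 6 h over 0 h, scanner values on the x axis and value table on the y axis. Red points (1216) were called higher in both sources, blue points (1447) lower in both, orange triangles (84) in opposite directions, and grey points were not called in both.

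Secreted inflammatory mediators, vascular signals and a scavenger receptor led the rises that both sources measured on both sides. Cxcl1, Cxcl5 and Cxcl2, which draw neutrophils, and Saa3, an acute-phase protein, headed the list, with Il6, Marco, Il1a, Cav1, Edn1 and Tnf behind them. Cxcl5 had log2 signals of 2.94, 2.81 and 2.79 at 6 h, against -4.3, -4.36 and -4.74 at 0 h. Its ratios in the value table were 1383, 1273 and 1268 at 6 h, against 1.0, 1.2 and 0.701 at 0 h. The groups lay far apart in both sources, with log2 changes of 7.31 ± 0.14 and 10.43 ± 0.16 (adjusted p = 3.99e-11 and 1.04e-11). Cxcl1 had log2 signals of 7.03, 6.7 and 6.89 at 6 h, against -2.79, -2.66 and -2.51 at 0 h, and ratios of 679, 659 and 671 at 6 h, against 1.0, 0.801 and 5.58 at 0 h. Its values at 0 h scattered widely in the table, with replicate 3 above the other 2 samples, and its log2 changes were 9.53 ± 0.088 and 8.67 ± 0.57 (adjusted p = 9.43e-13 and 2.84e-07). Without 0 h replicate 3 the table's log2 change was 9.55.

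The start sites of Cxcl1, Saa3 and Cxcl2 are shown because these genes ranked highest among the rises with an entry in the RefSeq promoter table (build GRCm38.p6). No entry was found there for Cxcl5. Each sequence runs 5′ to 3′ on the strand of the gene, from 250 bases before the start site to 50 after it, and capitals mark matches to the motifs searched. In Cxcl1 (chr5:90890995-90891294, plus strand) they mark the NF-kB motif (GGG, any 2 bases, TTTCC) at -89 and -71 from the start. In Saa3 (chr7:46715627-46715926, minus strand) they mark the interferon-response motif (GAAA, any 2 bases, GAAA) at -125 and the sterol-response motif TCACNCCAC at -67. In Cxcl2 (chr5:90903649-90903948, plus strand) they mark the NF-kB motif at -97 and -78.
Cxcl1: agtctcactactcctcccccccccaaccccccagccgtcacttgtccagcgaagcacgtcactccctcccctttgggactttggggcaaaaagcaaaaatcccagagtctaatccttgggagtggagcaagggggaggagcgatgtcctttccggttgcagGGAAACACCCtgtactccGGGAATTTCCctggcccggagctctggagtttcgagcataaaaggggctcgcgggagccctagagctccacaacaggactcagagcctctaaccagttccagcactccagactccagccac
Saa3: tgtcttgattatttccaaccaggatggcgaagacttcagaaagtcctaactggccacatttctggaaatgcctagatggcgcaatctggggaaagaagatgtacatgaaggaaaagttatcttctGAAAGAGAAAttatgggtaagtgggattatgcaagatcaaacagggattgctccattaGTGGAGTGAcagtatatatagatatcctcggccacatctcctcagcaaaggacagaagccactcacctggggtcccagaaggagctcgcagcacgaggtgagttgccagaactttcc
Cxcl2: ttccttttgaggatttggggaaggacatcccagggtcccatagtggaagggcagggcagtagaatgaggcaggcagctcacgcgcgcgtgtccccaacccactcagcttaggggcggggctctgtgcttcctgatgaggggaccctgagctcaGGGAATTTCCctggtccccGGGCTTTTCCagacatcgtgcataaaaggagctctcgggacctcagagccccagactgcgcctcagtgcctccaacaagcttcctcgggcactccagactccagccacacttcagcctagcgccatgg

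A total of 11 motifs were searched on both strands, and a match describes letters only. Beside those spelled above they were AP-1 (TGANTCA), CRE (TGACGTCA), the antioxidant-response motif (TGACNNNGC), C/EBP (TTNNGCAAT), E2F (TTCCCGCC), CCAAT, the cell cycle homology motif (TTTGAA) and TATAAA. The NF-kB motif was in 1.62% of all 27025 promoters of the table, in 1.56% of the 9334 of measured genes, in 3.19% of the 690 promoters of genes higher in both sources, and in 1.45% of the 690 of genes lower in both. Among the 23 first-ranking rises with a promoter it was in 17.4%, namely in Cxcl1, Cxcl2, Il6 and Marco. The interferon-response motif was in 3.49% of all promoters, 3.19% of those of measured genes and 17.4% of the same 23 (4 promoters). For the sterol-response motif the shares were 1.22%, 1.15% and 4.35% (1 promoter, that of Saa3).

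Several of the first-ranking rises encode proteins best known from blood vessels, muscle or nerve. Cav1, the coat protein of caveolae, had log2 signals of 2.97, 2.87 and 2.93 at 6 h, against -2.91, -2.8 and -3.15 at 0 h, and ratios of 115, 107 and 95.4 at 6 h, against 1.56, 0.971 and 1.0 at 0 h. Edn1, which encodes the precursor of the vasoconstrictor endothelin-1, had log2 signals of 1.72, 1.57 and 1.76 at 6 h, against -3.87, -3.74 and -3.99 at 0 h, and ratios of 98.9, 88.0 and 74.7 at 6 h, against 0.811, 1.0 and 1.39 at 0 h. Neither gene's groups overlapped in either source, and the log2 changes were 5.88 ± 0.079 and 6.52 ± 0.16 for Cav1 (adjusted p = 7.76e-12 and 1.7e-10) and 5.55 ± 0.084 and 6.38 ± 0.19 for Edn1 (adjusted p = 1.19e-11 and 7.68e-10). Procr, the endothelial receptor for protein C, had log2 signals of 6.67, 6.26 and 6.57 at 6 h, against 2.11, 2.06 and 2.07 at 0 h, and log2 changes of 4.42 ± 0.086 and 5.52 ± 0.090. Ppfia3, a scaffold of synapses, changed by 6.17 ± 0.078 and 5.1 ± 0.085 and Tnnt2, the troponin T of heart muscle, by 5.0 ± 0.2 and 5.77 ± 0.28. Lad1, an anchoring filament protein of epithelium, changed by 4.23 ± 0.055 and 5.45 ± 0.080.

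Growth factor signals and enzymes made up much of the rest of the first 25 rises. Areg, a ligand of the EGF receptor, rose with log2 changes of 5.72 ± 0.4 and 4.75 ± 0.12, and Fst, which encodes the activin-binding protein follistatin, with 6.65 ± 0.081 and 4.35 ± 0.10. Plpp3, a phosphatase that degrades bioactive lipids, rose by 4.33 and 4.81, and Pla2g4f, a cytosolic phospholipase A2, by 4.27 and 4.44. Il12a, a subunit of interleukin 12, rose by 5.46 and 4.98 and Ccl22, a chemokine for T cells, by 4.42 and 4.28. Calhm6, of a family of pore-forming channels, rose by 4.82 and 4.99, and Msantd3 by 4.83 and 6.33. Gsta1, a glutathione S-transferase with close paralogues that a probe may not tell apart, rose by 4.44 and 5.76. Saa1, likewise close to its neighbour in sequence, and the collagenase gene Mmp13 had values on 2 scanner arrays at 6 h and log2 changes of 4.57 and 4.37 and of 5.03 and 4.21. When the probes of a gene were averaged, the scanner change of Saa1 was 0.78 and short of the threshold.

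For some rises 1 group was outside the range of the scanner, and only a bound can be given, written as at least a fold for the scanner and followed by the fold in the table. Where every array of a group was not well above background, the lowest signal well above background on each array, or the probe's own where that was higher, stood in for it, and a saturated spot stood at its value. Ptgs2, the inducible enzyme of prostaglandin synthesis, had log2 signals of 5.6, 5.3 and 5.48 at 6 h and was not well above background on any array at 0 h, which makes it at least 991-fold higher (adjusted p = 1.34e-10). In the value table it rose 232-fold, with ratios of 257, 220 and 226 at 6 h, against 1.03, 1.0 and 1.000 at 0 h. Inhba, whose product forms activin A, saturated on all arrays at 6 h and was at least 103-fold and 28.8-fold higher. Csf2 and Csf3, which encode the growth factors GM-CSF and G-CSF, were at least 165-fold and 4.78-fold and at least 86.0-fold and 52.1-fold higher. Slc1a2, a glutamate transporter best known from glia, was at least 63.9-fold and 32.6-fold higher, and its ratios of 27.8, 69.3 and 25.9 at 6 h, against 0.789, 1.0 and 1.83 at 0 h, did not overlap. Il1f6, which encodes interleukin 36 alpha, was at least 78.2-fold and 98.3-fold higher, and Cxcl3, saturated at 6 h, at least 55.1-fold and 330-fold. Il23a, a subunit of interleukin 23, was at least 55.8-fold and 5.24-fold higher. Thbs4, a matrix protein of the thrombospondin family, was at least 61.0-fold and 31.2-fold higher, and its fitted scanner change of 7.45 was 8.12 without 0 h replicate 3. Nts, the precursor of the peptide neurotensin, was at least 211-fold and 12.7-fold higher, and its table change of 3.66 ± 0.91 ranged from 2.92 to 5.01 when single samples at 0 h were left out. With quantile normalization the table no longer called Csf2 (1.9), Il23a (1.37) or Nts (1.49).

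Genes for surface and membrane proteins led the falls. Hepacam2, an adhesion molecule of the immunoglobulin family, had log2 signals of -3.78, -4.09 and -3.79 at 6 h, against 0.34, 0.38 and 0.4 at 0 h, and ratios of 0.0345, 0.0301 and 0.0314 at 6 h, against 0.934, 1.0 and 1.11 at 0 h. Tmem37, a channel-like membrane protein, had log2 signals of -0.66, -0.67 and -0.69 at 6 h, against 3.42, 3.4 and 3.37 at 0 h, and ratios of 0.0536, 0.0483 and 0.0470 at 6 h, against 0.888, 1.0 and 1.0 at 0 h. The groups of neither gene overlapped, and the log2 changes were -4.26 ± 0.11 and -4.99 ± 0.11 for Hepacam2 (adjusted p = 2.18e-10 and 1.01e-10) and -4.07 ± 0.057 and -4.28 ± 0.066 for Tmem37 (adjusted p = 8.22e-12 and 1.24e-11). Ccr2, the receptor through which monocytes follow Ccl2, had log2 signals of -0.59, -0.15 and -0.83 at 6 h, against 4.14, 4.11 and 4.12 at 0 h, and ratios of 0.0622, 0.0657 and 0.0604 at 6 h, against 1.01, 1.0 and 0.996 at 0 h. All its values at 6 h lay below all at 0 h in both sources.

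The start sites of these 3 genes are shown as those of the highest-ranking falls, in the same build and with the same meaning of position and capitals. In Hepacam2 (chr6:3494449-3494748, minus strand) they mark the cell cycle homology motif TTTGAA at -189 and -103 and the overlapping matches to TATAAA at -235 and -233. In Tmem37 (chr1:120073731-120074030, minus strand) they mark the antioxidant-response motif TGACNNNGC at -146 and -105, and the AP-1 motif TGANTCA at -103, which overlaps the second of these. In Ccr2 (chr9:124101933-124102232, plus strand) they mark TTTGAA at -242 and -124.
Hepacam2: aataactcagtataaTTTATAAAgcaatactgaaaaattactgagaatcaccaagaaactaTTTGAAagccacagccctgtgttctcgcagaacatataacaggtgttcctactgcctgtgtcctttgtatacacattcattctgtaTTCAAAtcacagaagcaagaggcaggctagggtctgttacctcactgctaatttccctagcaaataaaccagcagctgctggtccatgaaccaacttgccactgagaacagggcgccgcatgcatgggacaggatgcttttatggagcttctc
Tmem37: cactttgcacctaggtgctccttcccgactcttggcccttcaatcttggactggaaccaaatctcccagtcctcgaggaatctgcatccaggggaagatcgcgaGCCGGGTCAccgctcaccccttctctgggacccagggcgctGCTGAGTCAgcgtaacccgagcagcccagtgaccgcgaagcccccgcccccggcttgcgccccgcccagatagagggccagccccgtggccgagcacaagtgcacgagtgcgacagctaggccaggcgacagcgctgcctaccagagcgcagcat
Ccr2: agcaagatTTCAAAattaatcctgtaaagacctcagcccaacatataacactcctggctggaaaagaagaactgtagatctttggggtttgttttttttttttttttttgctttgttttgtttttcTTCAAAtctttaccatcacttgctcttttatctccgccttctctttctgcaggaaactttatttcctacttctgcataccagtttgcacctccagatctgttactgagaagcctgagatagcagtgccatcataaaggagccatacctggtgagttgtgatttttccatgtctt

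TTTGAA was in 18.1% of all promoters, in 12.6% of those of measured genes, in 14.6% of those of genes lower in both sources and in 31.8% of the 22 first-ranking falls with a promoter. TATAAA was in 14.2%, 8.88%, 7.25% and 18.2% of the same sets, TGANTCA in 7.93%, 5.61%, 4.78% and 13.6%, and TGACNNNGC in 12.5%, 14.7%, 13.9% and 18.2%. The NF-kB and sterol-response motifs were in 0 of these 22 promoters, and the interferon-response motif was in 13.6% of them. Among the 23 first-ranking rises with a promoter, TATAAA was in 21.7%, TGANTCA in 17.4%, and TTTGAA and TGACNNNGC in 8.7% each.

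Other falls were spread over receptors, metabolic enzymes and signalling proteins. Fcgrt, the neonatal Fc receptor that recycles antibodies, had log2 signals of -0.59, -0.86 and -0.59 at 6 h, against 2.97, 2.92 and 3.04 at 0 h, and log2 changes of -3.65 ± 0.084 and -3.31 ± 0.061 (adjusted p = 1.27e-10 and 3.64e-11). Il1rl1, the receptor for interleukin 33, had log2 signals of -0.38, -0.38 and -0.35 at 6 h, against 2.95, 2.9 and 2.91 at 0 h, and log2 changes of -3.29 ± 0.036 and -4.13 ± 0.079. Kmo, an enzyme of tryptophan breakdown, had ratios of 0.0626, 0.0577 and 0.0629 at 6 h, against 0.954, 1.05 and 1.0 at 0 h, and log2 changes of -3.28 ± 0.11 and -4.03 ± 0.14. None of these 3 had overlapping groups. The lectins Clec10a and Asgr2, which bind galactose-type sugars, changed by -3.3 and -4.59 and by -3.07 and -3.49. Aqp3, a channel for water and glycerol, changed by -2.97 and -4.76, and Cd34, a surface protein of progenitor cells, by -2.85 and -3.19. Ramp1, a partner of the receptor for the peptide CGRP, changed by -3.56 and -2.85, and Deptor, an inhibitor of the kinase mTOR, by -2.92 and -2.82. Selenbp1 and Selenbp2, a pair of near-identical genes whose probes may not tell them apart, changed by -3.08 and -3.17 and by -3.02 and -3.11.

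The remaining first-ranking falls were of the same size. Chn2 and Arhgap18, which switch off small GTPases, changed by -3.58 and -2.88 and by -3.54 and -3.02. Rnase6, a secreted ribonuclease, changed by -3.39 and -3.04, Igflr1, a receptor of the TNF receptor family, by -3.05 and -3.66, and Cep131, a centrosomal protein, by -3.05 and -3.89. Slc27a3, of the fatty acid transport proteins, changed by -2.76 and -3.88, and Ppp1r1a, an inhibitor of protein phosphatase 1, by -2.68 and -2.77. The paladin gene Pald1 changed by -3.12 and -3.54 and the adhesion gene Tenm4 by -3.24 and -3.34, which within slide 1 was -3.96. Gpr82, an orphan receptor, changed by -2.75 and -2.96 (-3.5 within slide 1). The sodium and proton exchanger gene Slc9a9 changed by -2.69 and -3.96, and the array of 6 h replicate 2 decided the scanner value, which was -3.7 without it and -3.72 within slide 1.

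Falls that only a bound describes included genes of lipid and steroid use. Cyp2s1, a cytochrome P450, had a scanner log2 change of -5.31 ± 0.081, and stood at the lowest ratio of the value table in all 3 columns at 6 h. Cyp27a1, which hydroxylates sterols, had log2 signals of -4.31, -4.83 and -4.84 at 6 h, none well above background, against -0.33, -0.41 and -0.41 at 0 h. It was at least 15.7-fold lower by the scanner and 8.98-fold lower in the table. Acot1, a thioesterase of fatty acyl-CoA with close paralogues, was at least 23.6-fold and 4.88-fold lower, and Slco2b1, an organic anion carrier, at least 19.5-fold and 51.8-fold. The zinc finger gene Cxxc5 was at least 15.9-fold and 11-fold lower. Kif5a, a motor of microtubules, was at least 9.22-fold and 21.5-fold lower and Lbh at least 10.5-fold and 3.13-fold lower, and their fitted scanner changes of -4.23 and -3.76 were -4.91 and -4.51 within slide 1. Esyt3, which had values on 2 scanner arrays at 6 h, was at least 15.6-fold and 8.07-fold lower.

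**Figure D2:**
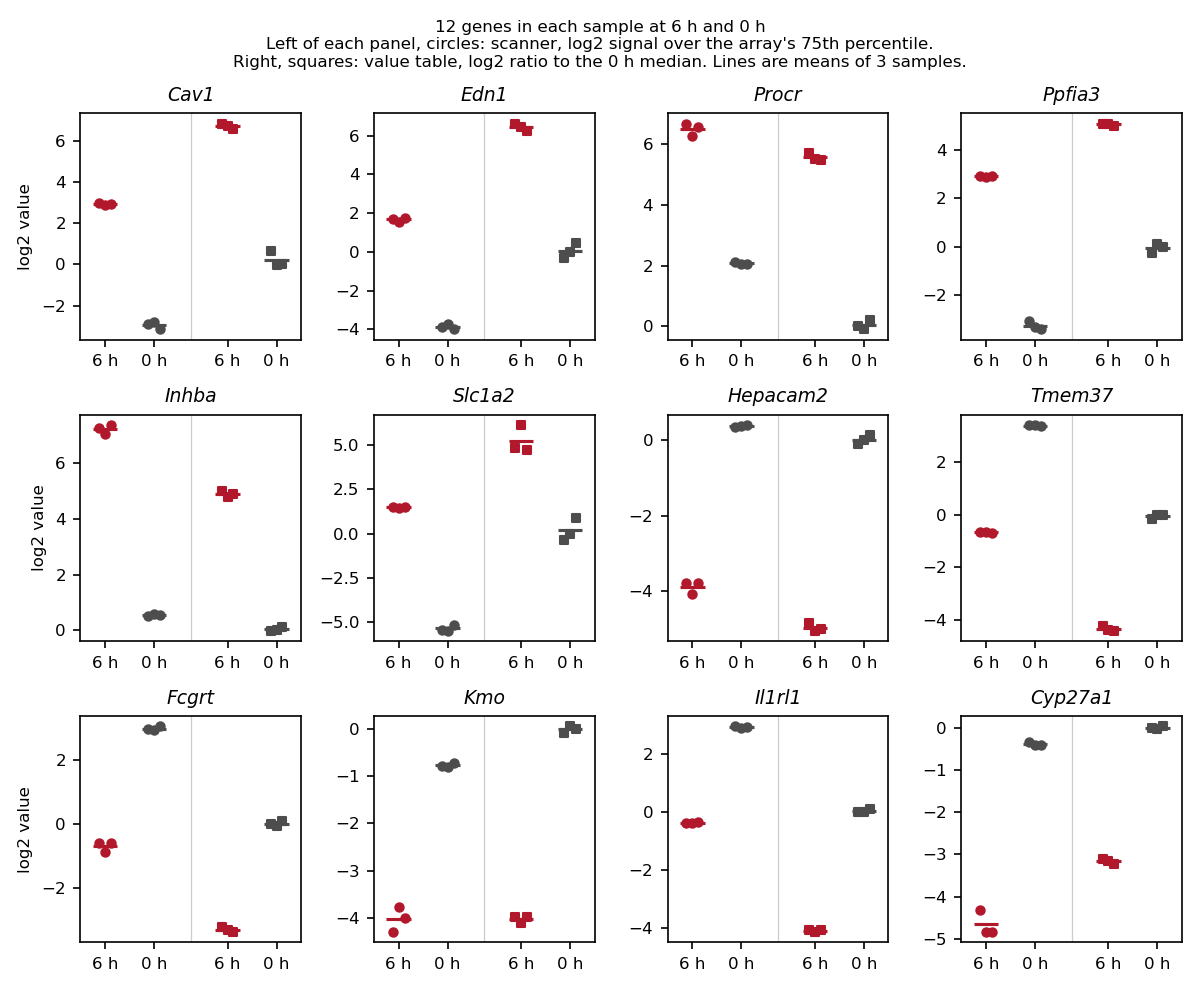
Values of 12 genes in each sample, 6 h in red and 0 h in grey, with log2 signals from the scanner at the left of each panel and log2 ratios of the value table at the right. Lines are means of 3 samples, and in every panel all 6 h values lie on the same side of all 0 h values.

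Ligands were called higher more often than all genes. The lists here and below were chosen with earlier results of these data known, so such comparisons only describe. Counts in both sources are to be read against 6.61% of all genes higher and 7.86% lower. Of 23 measured inflammatory cytokine genes, 14 rose and 0 fell in both sources, with median log2 changes of 4.08 (3.8 with bounded members at their bound) and 2.53. Of 15 growth factor genes 6 rose and 0 fell in both. Ereg, like Areg a ligand of the EGF receptor, was at least 32.7-fold and 21.2-fold higher, and Gdf15, a stress-induced member of the TGF-beta family, rose by 2.23 and 2.80. Vegfc and Pgf, growth factors of vessels, were called in opposite directions, with a table change of -1.34 for Vegfc and changes of 1.34 and -1.14 for Pgf. CXC chemokines were higher in both for 7 of 10 and lower for 0, and CC chemokines for 5 and 0 of 13. Ccl24, an attractant of eosinophils, rose by 1.34 and 2.03, while Ccl12 was called in opposite directions (1.37 and -1.7).

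Receptors split between the directions. Of 20 chemoattractant receptors, 5 rose and 5 fell in both sources (4 without Ackr3, not well above background in either group). Ccrl2, a receptor that binds chemerin, rose by 3.07 and 3.69, and Fpr1 and Fpr2, which sense formylated bacterial peptides, by 2.42 and 3.53 and by 1.51 and 2.31. Cxcr5, which leads cells to follicles, was at least 4.13-fold and 5.04-fold higher. Beside Ccr2, the falls included Cxcr2, the neutrophil receptor for the CXC chemokines above (-2.27 and -3.07), the leukotriene B4 receptor Ltb4r1 (-1.9 and -2.41) and the scavenging receptor Ackr3 (not well above background in either group, table change -5.32). Cxcr4, the receptor for Cxcl12, was called in opposite directions (-1.85 and 1.2).

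Cytokine receptors were called in both directions, with 3 of 33 higher and 5 lower, against 6.61% and 7.86% of all genes. Il12rb1, a receptor chain for interleukins 12 and 23, rose by 2.15 and 2.03, Tnfrsf1b, a receptor for TNF, by 3.0 and 3.22, and Il7r by 1.13 and 3.03. Il18r1, Lifr, Ifngr1 and Tgfbr2 fell. Il18r1 changed by -3.52 and -2.44 and Tgfbr2 by -1.46 and -1.04, which with the probes of a gene averaged was -0.99 in the table. In the TNF superfamily 6 of 18 genes rose and 2 fell. Tnfsf15, a costimulator of T cells, was at least 49.7-fold and 51.8-fold higher, and Tnfrsf9, a costimulatory receptor of T cells, rose by 2.88 and 3.37, while Tnfsf13b, the B-cell survival factor BAFF, changed by -2.49 and -2.30.

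Receptors for sugars and antibodies fell more often than they rose. Of 21 C-type lectins and Fc receptors, 8 fell and 4 rose in both sources (7 fell without Clec9a, not well above background in either group), with medians of -0.97 and -0.47. Mrc1, the mannose receptor, changed by -1.62 and -2.24, Clec9a, which binds actin of dead cells, by -1.69 in the table (not well above background in either group), and the Fc receptors Fcgr1 and Fcgr3 by -1.45 and -2.11 and by -1.09 and -1.38. Clec4e and Clec4d, which sense mycobacterial glycolipids, rose. Clec4e, saturated at 6 h, was at least 6.88-fold and 73.9-fold higher, Clec4d rose by 1.79 and 4.39, and Ly75, an uptake receptor for antigen, by 3.14 and 2.20. Scavenger receptors and phagocytosis genes were higher in both for 6 of 18 and lower for 1. Marco, a receptor for bacteria and particles, had log2 signals of 6.33, 6.17 and 6.27 at 6 h, against -1.21, -1.22 and -1.2 at 0 h, and log2 changes of 7.46 ± 0.056 and 6.61 ± 0.063 without overlap of the groups. Timd4, which binds phosphatidylserine on dying cells, rose by 2.8 and 5.11 and Olr1, a receptor for oxidised lipoproteins, by 2.5 and 3.56. Cd163, the receptor for haemoglobin complexes, was at least 1.57-fold and 2.04-fold lower, and its call in the table (log2 change -1.03) was lost without 0 h replicate 1 (-0.93), 0 h replicate 2 (-1.13), 0 h replicate 3 (-1.03), 6 h replicate 2 (-0.94) or 6 h replicate 3 (-0.71).

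Part of the machinery of uptake rose. Of 20 genes of macropinocytosis and endocytosis, 7 rose and 1 fell in both sources. Rab20, a GTPase of phagosomes, rose by 2.55 and 3.04, Rabgef1, which activates Rab5, by 1.85 and 1.6, Rhob, an endosomal GTPase, by 1.64 and 1.98, and Eea1, a tether of early endosomes, by 1.18 and 1.17. Pak1, a kinase that acts on the actin skeleton, changed by -2.19 and -1.66. Lysosomal genes gave 2 higher and 1 lower of 29, against 6.61% and 7.86% of all genes. Ctse, an aspartic protease of endosomes, changed by -1.72 and -1.17. MHC class II presentation gave 0 higher and 1 lower of 12, and MHC class I presentation 0 and 0 of 17, where the table alone called 7 higher.

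Regulators of NF-kB rose. Of 17 subunits and inhibitors, 12 rose and 0 fell in both sources, with medians of 1.87 and 2.47. The NF-kB motif stood in 35.7% of the 14 promoters found for this list, against 1.56% of those of measured genes. For CXC and CC chemokines it was in 3 (37.5%) and 1 (12.5%) of 8 promoters each. Such shares, here and below, cover the members of a list with a promoter, called or not. Tnfaip3, which edits ubiquitin chains and ends signalling, rose by 3.33 and 3.95, Nfkbiz, a nuclear cofactor, by 4.92 and 3.17, and Rel, a subunit, was at least 3.4-fold and 15.4-fold higher. Of 26 genes of Toll-like receptor signalling 10 rose and 0 fell in both, and with quantile normalization of the value table this was 6. Ikbkg, the NEMO subunit of the IkB kinase, rose by 2.46 and 2.68 and Ikbke by 1.85 and 2.03. MAP kinase phosphatases and feedback genes were higher in both for 8 of 22 and lower for 1, or 2 without 6 h replicate 1 or without 6 h replicate 2. Dusp4, a nuclear phosphatase, was at least 21.5-fold and 82.6-fold higher, Rgs1, a brake on chemokine receptors with values on 2 scanner arrays at 6 h, rose by 3.65 and 3.89, and Gadd45b, a stress adaptor, by 2.96 and 4.82. Spry1, an inhibitor of growth factor signals, was called in opposite directions (3.35 and -1.15).

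Feedback through JAK and STAT gave few calls shared by the sources. Of 24 genes the scanner called 11 higher and the table called 4, with 3 in both, namely Stat5a (3.02 and 2.61), Socs3 (5.98 and 1.83) and Ptpn1 (at least 2.18-fold and 2.44-fold higher, saturated at 6 h). Cish, an inhibitor of STAT5 signals, had log2 signals of 6.36, 6.14 and 6.3 at 6 h, against 2.28, 2.3 and 2.28 at 0 h, while its ratios were 0.166, 0.145 and 0.142 at 6 h, against 1.03, 0.995 and 1.0 at 0 h. The groups stood apart in both sources but in opposite order (3.98 ± 0.060 and -2.75 ± 0.061). Pim1, a kinase under STAT5, went the same 2 ways (2.73 and -1.15).

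Transcription factors rose more often than they fell. Of 26 AP-1, EGR and immediate early genes 7 rose and 2 fell in both sources. Nr4a3 and Nr4a1, orphan nuclear receptors, rose, Nr4a3 at least 6.16-fold and 22.6-fold and Nr4a1 by 1.13 and 1.8 on the log2 scale. Maff, a small Maf protein, rose by 2.83 and 3.25. Fos, a founding member of AP-1, changed by -1.96 and -1.46, with log2 signals of -2.47, -2.39 and -2.45 at 6 h, against -0.46, -0.5 and -0.47 at 0 h, and Klf4, a factor of monocyte development, by -2.64 and -2.49. Of 25 lineage factors 9 rose and 1 fell, and 2 fell without 0 h replicate 2, without 0 h replicate 3 or without 6 h replicate 1. Gfi1, a repressor of myeloid development, rose by 3.5 and 2.45, Prdm1, the repressor Blimp-1, by 1.76 and 2.93, Ets2 by 2.5 and 2.33 and Cebpb, a factor of inflammatory myeloid genes, by 1.56 and 1.91. Zbtb46, a factor of conventional dendritic cells, rose by 1.14 and 1.08 (0.95 and not called with the table centred on its median), and Ikzf1, the factor Ikaros, changed by -1.33 and -1.97.

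Interferon genes rose with no falls shared by the sources. Of 26 type I interferon response genes 13 rose and 0 fell in both sources, and of 14 interferon-inducible GTPases 7 and 0. Oasl1, which restrains the translation of Irf7, rose by 2.52 and 4.0, Cmpk2, a nucleotide kinase, by 2.18 and 3.5, and Isg20, an exonuclease, by 2.12 and 2.72. Gbp2 and Gbp6, GTPases of host defence with close paralogues, rose by 2.8 and 3.95 and by 2.43 and 3.61. The interferon-response motif was in 50.0% of the 22 promoters found for the first list, against 3.19% of those of measured genes.

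Eicosanoid genes were called in both directions. Of 17 eicosanoid genes, 2 rose and 6 fell in both sources, while the table alone called 6 higher, with medians of -0.87 and -0.54. Ptges, which makes prostaglandin E2 from the product of Ptgs2, had log2 signals of 2.46, 2.43 and 2.55 at 6 h, against -2.5, -2.18 and -2.22 at 0 h, and ratios of 12.9, 12.4 and 11.6 at 6 h, against 1.0, 0.972 and 1.06 at 0 h. It rose 27.5-fold and 12.2-fold (log2 changes 4.78 ± 0.083 and 3.61 ± 0.057). Tbxas1, the thromboxane synthase, had log2 signals of 2.61, 2.29 and 2.57 at 6 h, against 4.95, 4.94 and 4.96 at 0 h, and log2 changes of -2.46 ± 0.078 and -1.96 ± 0.077 (adjusted p = 1.13e-09 and 5.72e-09). Neither gene's groups overlapped. Alox5 and Lta4h, which act in turn towards leukotriene B4, changed by -1.12 and -1.48 and by -1.54 and -1.88, Alox15 by -1.4 and -1.12 and the constitutive cyclooxygenase Ptgs1 by -1.03 and -1.74. With centring of the arrays on their median, Alox5 and Ptgs1 were at -0.98 and -0.89 in the scanner values and short of the threshold. Ptger3, a receptor for prostaglandin E2 with values on 2 scanner arrays at 6 h, was at least 16-fold lower by the scanner. Its table change of -1.02 was -0.98 without 0 h replicate 3 and -0.93 without 6 h replicate 2, both short of the threshold.

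Genes of arginine use and host defence moved mainly upwards. Of 14 genes of arginine and nitric oxide metabolism 7 rose and 1 fell in both sources. Slc7a2, which imports arginine, rose by 4.74 and 3.85, and Gch1, which starts the synthesis of a cofactor of nitric oxide synthase, by 2.37 and 2.26. Ass1, which remakes arginine, rose by 1.29 and 3.49 with values on 2 scanner arrays at 6 h, and Ch25h, which makes 25-hydroxycholesterol, by 4.6 and 2.18. Arg1 changed by -1.61 and -4.39 and Arg2, the mitochondrial arginase, by 2.14 and 2.24, so that the 2 arginases were called in different directions. Antibacterial and acute-phase products were higher in both for 10 of 24 and lower for 1, which was Ltf, the lactoferrin gene (-1.08 and -1.97), at -0.94 and not called in the scanner values centred on the median. Cfb, a complement factor, rose by 3.14 and 3.73, Slc11a1, a metal pump of phagosomes, by 2.44 and 3.45, and Slpi, an inhibitor of neutrophil elastase, by 2.31 and 2.56.

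Proteases and their inhibitors gave 10 higher and 0 lower in both sources of 24, with medians of 1.87 (1.59 at bounds) and 1.27. Beside Mmp13, the membrane-bound protease genes Mmp14 and Mmp25 rose by 2.72 and 4.76 and by 2.47 and 2.73. Serpinb2, a serpin that saturated at 6 h, was at least 14.5-fold and 9.41-fold higher. Timp1, an inhibitor of matrix proteases, rose by 2.99 and 2.77, and Serpinb9, an inhibitor of granzyme B, by 3.38 and 3.54. In integrins and adhesion 6 of 23 rose and 8 fell. Vcam1 and Icam1, ligands of leukocyte integrins, rose by 2.44 and 3.78 and by 1.91 and 2.64, and Itga5, a chain of the fibronectin receptor, by 2.73 and 2.24. Epcam and Cdh1, epithelial adhesion molecules that some dendritic cells carry, fell, Epcam at least 2.45-fold and 5.56-fold and Cdh1 by -1.99 and -5.35 on the log2 scale.

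Genes of protein turnover and oxidative defence rose without falls in both sources. Of 18 proteasome genes 9 rose and 0 fell, with medians of 1.14 and 0.97. Psmb6, a catalytic subunit of the constitutive core, had log2 signals of 7.19, 7.01 and 7.19 at 6 h, against 5.48, 5.46 and 5.49 at 0 h, and ratios of 4.09, 3.71 and 3.67 at 6 h, against 1.0, 0.960 and 1.11 at 0 h, without overlap. Its log2 changes were 1.65 ± 0.054 and 1.9 ± 0.067, and those of the regulatory subunit Psmd11 1.59 ± 0.051 and 1.37 ± 0.067. With quantile normalization of the scanner values 5 proteasome genes were called higher in both, and with the table so normalized this was 3. Of 27 genes of the NRF2 response 12 rose and 0 fell in both, while the table alone called 22 higher. Hmox1, which degrades haem, rose by 2.45 and 4.7, Srxn1, which repairs peroxiredoxins, by 2.44 and 4.89, and Mt2, a metal-binding protein, by 2.25 and 3.28. Among glutathione S-transferases 4 of 13 rose, led by Gstm2 (1.86 and 2.62) and Gstm1 (1.81 and 2.47), which are close paralogues, and 1 fell. The rises were 3 without Gstt1, not well above background in either group.

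Sterol synthesis genes rose. Of 31 genes of cholesterol and fatty acid synthesis 13 rose and 0 fell in both sources, and with quantile normalization of the value table this was 6. Pmvk and Cyp51, enzymes of the pathway, rose by 2.76 and 1.69 and by 2.37 and 1.49, and Insig1, its feedback sensor, by 1.91 and 1.36. The sterol-response motif was in 1 of the 21 promoters found for this list (4.76%), against 1.15% of those of measured genes. In LXR, PPAR and lipid handling 2 of 25 rose and 2 fell, near the shares of all genes (6.61% and 7.86%). Fabp4, a fatty acid carrier, changed by 3.46 and 2.6 and Pparg, a lipid-sensing nuclear receptor, by -1.97 and -1.12. Glycolysis and hypoxia gave 3 higher and 1 lower of 23, among them Pfkfb3, which speeds glycolysis (1.27 and 1.48), and Slc2a6, a sugar carrier (1.57 and 2.49). The glucose carrier gene Slc2a1 (1.77 and 1.03) was short of the threshold in the table with centring on the median (0.9) and without 0 h replicate 2 (0.99) or 6 h replicate 1 (0.94). The tricarboxylic acid cycle and oxidative phosphorylation gave 0 higher and 3 lower of 26, with Idh2 at -1.34 and -1.27. Amino acid carriers and tRNA synthetases gave 5 rises and 0 falls of 23, all of the rises being carriers, such as Slc3a2 (2.21 and 2.46).

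The other lists are given by the members higher and lower in both sources. Costimulation and maturation genes gave 13 and 0 of 20, pattern recognition receptors 6 and 1 of 21, and actin and motility genes 5 and 0 of 22. Genes of the endoplasmic reticulum stress response gave 4 and 1 of 21, with 1 rise under quantile normalization of the table and 0 falls without 0 h replicate 3 or without 6 h replicate 2. Heat shock proteins gave 2 and 0 of 15, autophagy 1 and 0 of 19 and complement 1 and 1 of 15. Ribosomal proteins and translation factors gave 3 and 0 of 20, ribosome biogenesis 1 and 0 of 20, mRNA decay 1 and 1 of 13 and ubiquitin ligases 3 and 1 of 18.

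**Figure D3:**
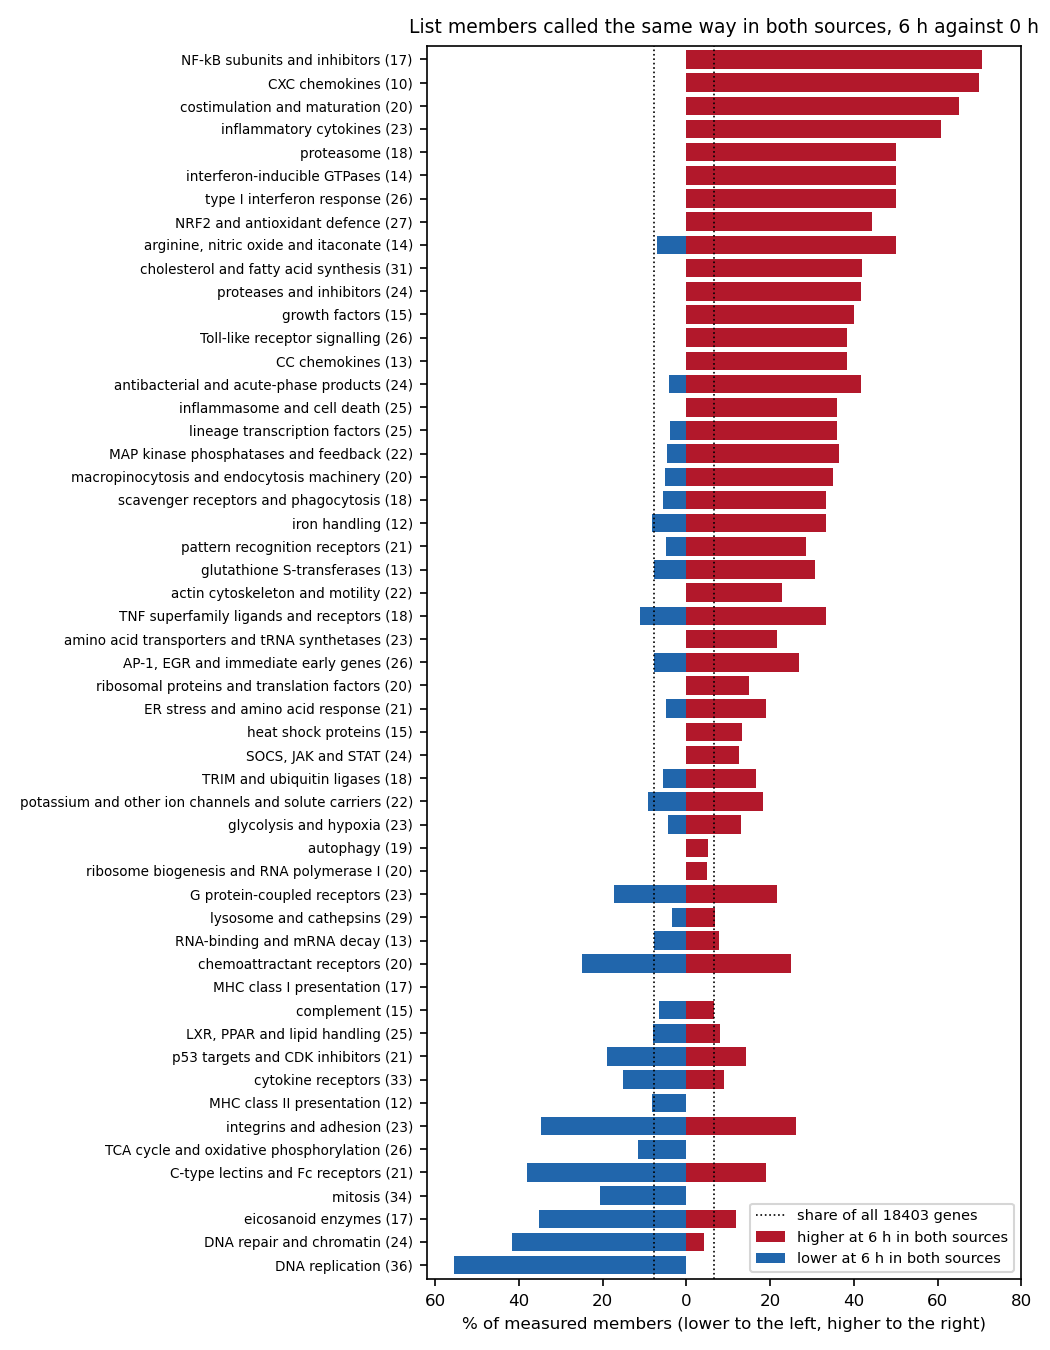
Share of the measured members of each gene list (number in brackets) called higher (red, to the right) or lower (blue, to the left) at 6 h than at 0 h in both sources, in percent. Dotted lines mark the shares of all 18403 genes, 6.61% higher and 7.86% lower, and DNA replication lies at the bottom with no member higher. The lists were chosen with earlier results of these data known.

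DNA replication genes fell together. Of 36 measured genes 20 fell and 0 rose in both sources, with medians of -1.08 and -1.25. With the scanner values centred on their median 14 fell in both and the scanner median was -0.937. With normexp and quantile normalization of the scanner values 17 fell in both. Pola1, a subunit of the polymerase that starts DNA strands, had log2 signals of -1.39, -1.38 and -1.24 at 6 h, against 0.85, 0.88 and 0.8 at 0 h, and ratios of 0.315, 0.261 and 0.259 at 6 h, against 1.02, 0.975 and 1.0 at 0 h. The groups did not overlap, and the log2 changes were -2.18 ± 0.048 and -1.85 ± 0.077 (adjusted p = 1.02e-10 and 9.21e-09). Mcm7, with values on 2 scanner arrays at 6 h, and Mcm6, subunits of the replicative helicase, changed by -1.72 and -1.88 and by -1.63 and -2.55, Dut, which clears dUTP, by -1.65 and -2.14, and E2f2 and E2f1, factors of S-phase genes, by -1.99 and -1.62 and by -1.59 and -1.59. The E2F motif TTCCCGCC was in 23.3% of the 30 promoters found for the list, against 4.02% of those of measured genes and 2.24% of all promoters.

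Mitotic genes fell in the scanner values, while fewer passed the 2-fold threshold in the table. Of 34 genes the scanner called 30 lower and the table called 7, all 7 of them in both, and neither called any higher. With the table centred on its median 12 were lower in both, and with quantile normalization of it 4. The list had medians of -1.6 and -0.76. Anln, which anchors the contractile ring, changed by -2.0 ± 0.19 and -1.47 ± 0.083, Kif23, a motor of cell division, by -2.17 ± 0.078 and -1.39 ± 0.081, and Ccna2, the cyclin A gene, by -1.82 ± 0.045 and -1.23 ± 0.083. Kif11, a motor of the spindle, changed by -2.04 and -1.11 and was short of the threshold in the table without 0 h replicate 3 (-0.97). TTTGAA was in 72.4% of the 29 promoters found for this list and CCAAT in 79.3%, against 12.6% and 39.2% of those of measured genes and 18.1% and 37.9% of all promoters. The E2F motif was in 0 of these 29 promoters. In DNA repair and chromatin 10 of 24 genes fell and 1 rose. Dnmt1, which maintains DNA methylation, changed by -1.9 and -1.22, while Hdac9, a histone deacetylase, was at least 4.85-fold and 10.5-fold lower. Kdm6b, a histone demethylase, rose by 1.97 and 1.05 (0.91 and not called with the table centred on its median). Of 21 p53 targets and cell cycle inhibitors 3 rose and 4 fell in both sources. Cell cycle inhibitors divided, with Cdkn2a (2.16 and 2.45) and Cdkn2b (2.76 and 4.6) higher and Cdkn2c (-1.75 and -1.1) and Cdkn2d (-1.35 and -1.08) lower. Cdkn1c, of the same list, was called in opposite directions.

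**Figure D4:**
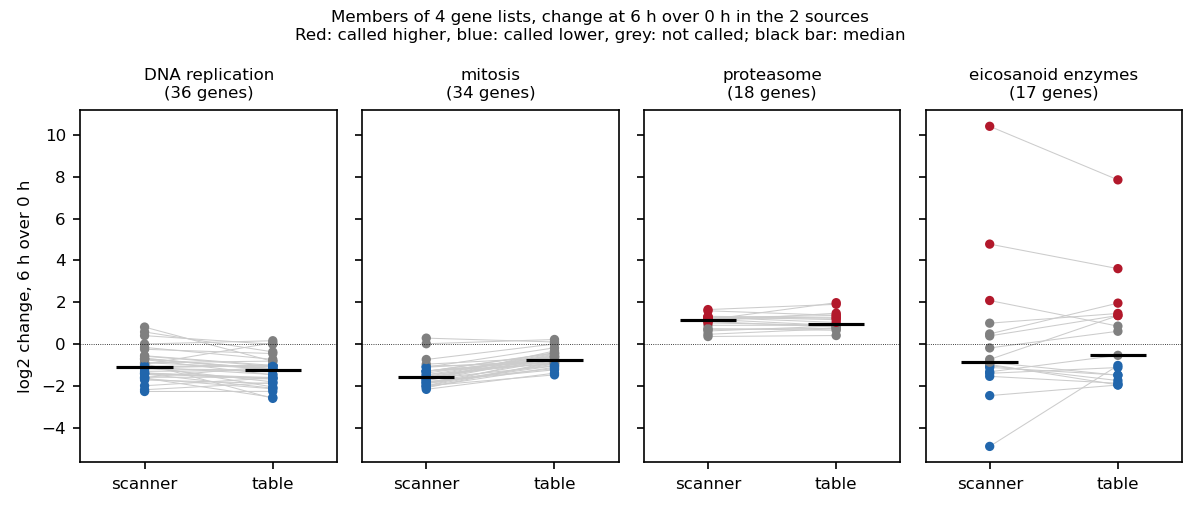
Log2 change at 6 h over 0 h of each measured member of 4 gene lists in the scanner values and the value table, joined by a line per gene; red and blue mark calls, and black bars the list medians. Mitotic genes lie lower in the scanner values (median -1.6) than in the table (-0.76), while DNA replication and proteasome genes lie at like levels in both.

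Receptors coupled to G proteins, beyond those for chemoattractants, gave 5 rises and 4 falls of 23. Gpr84, a receptor for medium-chain fatty acids, rose by 3.23 and 3.68, Hcar2, the niacin receptor, by 2.95 and 1.51, and Adora2a, an adenosine receptor, by 1.14 and 1.74. Gpr34 changed by -3.31 and -2.57, S1pr4, a receptor for sphingosine phosphate, by -1.43 and -1.71, and Hrh1, a histamine receptor, by -1.78 and -1.21. Among cell death genes 9 of 25 rose and 0 fell, led by Cflar, an inhibitor of caspase 8 (3.14 and 2.94), and Casp4, a sensor of lipopolysaccharide (2.43 and 2.58). Iron genes gave 4 rises and 1 fall of 12, and ion channels and carriers 4 and 2 of 22, among them Slc39a14, a zinc importer (3.11 and 2.95).

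Markers of the cell types that such a culture may hold were read beside these changes, as summed signals in multiples of the array's 75th percentile. The 18 measured markers of conventional dendritic cells summed to 822 to 932 at 6 h and 768 to 803 at 0 h, and 2 rose and 4 fell in both sources (3 fell without Clec9a). Itgax, the integrin that defines these cells, did not pass in either source (-0.28 and -0.09), nor did H2-Aa (-0.16 and 0.72), and Cd74 and Cst3 were saturated in both groups. Macrophage markers summed to 506 to 584 at 6 h and 372 to 383 at 0 h, with 3 rises and 3 falls of 14 in both sources. The scanner called 7 of them lower and 3 higher. Their median log2 changes were -0.752 (-0.355 with bounded members at their bound) and -0.402, and the sum holds Marco, whose rise is given above. Adgre1, a surface protein that marks mouse macrophages, did not pass (0.63 and 0.5). Markers of neutrophils and their precursors summed to 351 to 407 at 6 h and 377 to 388 at 0 h, with 1 rise and 4 falls of 14, Cxcr2, Elane, Retnlg and Ltf. S100a8 and S100a9, their most abundant products, did not pass, and S100a9 was saturated in both groups (S100a8 0.11 and 0.26). Their part in the falls of Cxcr2 and Ltf given above was not tested.

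Eosinophil markers set the sources apart. All 8 measured markers were called lower in the value table (median -2.0), against 1 in the scanner values (median -0.49), where they summed to 46.3 to 49.6 at 6 h and 61.6 to 62.9 at 0 h. Epx, the eosinophil peroxidase, had ratios of 0.0654, 0.0795 and 0.0772 at 6 h, against 0.934, 1.0 and 1.03 at 0 h, while its log2 signals were 0.97, 1.0 and 0.96 at 6 h, against 1.17, 1.13 and 1.14 at 0 h. Prg2, the major basic protein, had ratios of 0.152, 0.159 and 0.165 at 6 h, against 1.0, 0.963 and 1.02 at 0 h, and log2 signals of 4.76, 4.71 and 4.75 at 6 h, against 4.92, 4.87 and 4.88 at 0 h. Both genes fell clearly in the table (-3.74 ± 0.078 and -2.65 ± 0.12) and by under 0.2 on the log2 scale of the scanner. Siglecf, a lectin of eosinophils and some macrophages, was the marker called lower in both (-2.02 ± 0.094 and -1.51 ± 0.074).

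Among the markers of other cells at most 2 of a list rose and at most 1 fell in both sources. Mast cell and basophil markers summed to 45.6 to 49.9 at 6 h and 12.3 to 12.6 at 0 h, and Hdc, the histamine-forming enzyme, rose by 3.51 and 3.1, while Cpa3 (0.33 and -0.5) and Mcpt8 (0.09 and 0.38) did not pass. Hdc was the 1 of 9 measured markers called higher in both, and the list had medians of 0.158 and -0.308. B-cell markers summed to 84.4 to 94.7 at 6 h and 40.5 to 42.2 at 0 h, and 1 of 7, Blnk, rose in both (1.15 and 1.26). T-cell markers summed to 1.36 to 2.13 at 6 h and 1.73 to 1.8 at 0 h and natural killer cell markers to 0.331 to 0.413 at 6 h and 3.66 to 3.87 at 0 h. Of the 6 measured natural killer cell markers, 1 was well above background on all arrays at 6 h and 4 at 0 h. Their medians were -1.37 (-0.831 at bounds) and 0.131, and 1 rose and 1 fell in both sources. Klrb1c fell and Klrd1 was called in opposite directions, and Gzmb, the cytotoxic protease granzyme B, was at least 1.33-fold and 2.58-fold higher. Cd3d changed by -2.06 and -1.03 and was short of the threshold in the table without 0 h replicate 1 (-0.997), as was Lck (1.86 and 1.09), which was at 0.96 without that sample and at 1.29, not called, in the scanner values with the slide as a block. Erythroid markers summed to 0.976 to 1.17 at 6 h and 0.854 to 0.881 at 0 h, with 0 rises and 0 falls, markers of megakaryocytes to 60.2 to 65.5 at 6 h and 46.3 to 47.1 at 0 h, of plasmacytoid dendritic cells to 84.0 to 97.7 at 6 h and 46.2 to 46.7 at 0 h, and of stroma to 181 to 208 at 6 h and 181 to 191 at 0 h. Of the 8 plasmacytoid markers 2 rose and 0 fell in both sources, while the scanner called 2 higher and 2 lower. The rises were Tcf4 and Bst2, which is also in the list of type I interferon response genes. The medians of these markers were -0.0375 and 0.976. The megakaryocyte marker that rose in both was Ppbp, itself a CXC chemokine (1.62 and 6.69).

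The 84 genes called in opposite directions (0.456% of all) numbered 8 with a 4-fold threshold. Mfsd2a, a carrier of lysophospholipids, had log2 signals of -0.5, -0.58 and -0.46 at 6 h, against -4.25, -4.12 and -4.59 at 0 h, while its ratios were 0.0673, 0.0788 and 0.0754 at 6 h, against 1.0, 0.981 and 1.07 at 0 h. Id3, an inhibitor of helix-loop-helix factors, had log2 signals of -1.09, -1.15 and -1.0 at 6 h, against 2.39, 2.41 and 2.37 at 0 h, while its ratios were 13.2, 13.2 and 11.8 at 6 h, against 1.0, 0.639 and 1.09 at 0 h. The groups stood apart in each source, by 3.8 ± 0.11 and -3.79 ± 0.083 for Mfsd2a and -3.47 ± 0.063 and 3.84 ± 0.17 for Id3. Gpr162, an orphan receptor, changed by -1.92 and 4.25, Camkk1, a calcium-dependent kinase, by 1.96 and -1.96, and the secreted signal gene Wnt11 by -1.9 and 2.05. Slamf8, a surface protein of myeloid cells, changed by -2.83 and 2.42, and its scanner value was -1.72 without 6 h replicate 2 and -1.69, no longer called, with the slide as a block. Cd207, the langerin of Langerhans cells, was not well above background at 6 h, with values on 2 scanner arrays, and at least 4.3-fold lower by the scanner, while it rose 6.91-fold in the table. With normexp background correction its scanner call was lost (-0.71), as were those of Tmeff1 (-0.35) and B3galt2 (0.65).

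Some genes changed in 1 source and stood within 0.2 of no change on the log2 scale of the other. S1pr3, a receptor for sphingosine phosphate, had log2 signals of 1.3, 1.22 and 1.36 at 6 h, against -3.9, -3.62 and -3.43 at 0 h, but ratios of 1.11, 1.29 and 0.862 at 6 h, against 1.05, 1.0 and 0.794 at 0 h. Its groups were far apart in the scanner values (4.94 ± 0.11, adjusted p = 9.89e-11) and overlapped in the table (0.19 ± 0.25, adjusted p = 0.521). Ak4, a mitochondrial adenylate kinase, changed by 2.56 and 0.19, Smim5, a small membrane protein, by -3.64 and 0.04, and Hal, which degrades histidine, by -2.28 and 0.03. In the table alone rose Rrad, a small GTPase (0.05 and 3.69), Bok, of the BCL2 family (-0.11 and 3.79), and Ndrg4 (-0.18 and 2.89). The call of Cyp2c66, a cytochrome P450 at -2.63 in the table, was lost without 0 h replicate 2 (-1.99), 0 h replicate 3 (-2.05), 6 h replicate 1 (-3.03), 6 h replicate 2 (-2.4) or 6 h replicate 3 (-2.46). It was also lost, at the same change, without the samples labelled 24 h, with 0 h and 6 h alone, without the filter on dim probes and with a replicate block, and with quantile normalization (-1.88).

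The values at 12 h show which genes differed between 6 h and the next time. This contrast shares the 6 h samples with the one above, so that its values only stand beside it. In both sources 57 genes (0.31%) were higher at 12 h than at 6 h and 19 (0.103%) lower. The scanner values alone gave 899 higher (4.89%) and 387 lower (2.1%), and the value table alone 565 higher (3.07%) and 502 lower (2.73%). Plat, which activates plasminogen, had log2 signals of -3.2, -3.2 and -3.28 at 0 h, -1.42, -1.31 and -1.3 at 6 h and 1.19, 1.09 and 1.18 at 12 h. Its changes of 12 h over 6 h were 2.49 ± 0.1 and 2.51 ± 0.11 (adjusted p = 3.48e-08 and 2.11e-07). Il23r, the receptor for interleukin 23, changed by 3.35 and 1.7 and Hc, complement factor C5, by 2.15 and 2.17. At 6 h over 0 h Hc stood at 1.24 in the table, short of the threshold without 0 h replicate 1 (1.11), 0 h replicate 2 (0.8) or 6 h replicate 1 (1.16), while Il23r was not well above background in either group. Csf2 was lower at 12 h, with log2 signals of -6.49, -6.46 and -6.29 at 0 h, 2.95, 2.79 and 2.85 at 6 h and 0.36, 0.29 and 0.24 at 12 h. Its changes of 12 h over 6 h were -2.57 ± 0.064 and -1.33 ± 0.38, and the call in the table was lost without 12 h replicate 1 (-1.02), 12 h replicate 3 (-1.14) or 6 h replicate 3 (-1.23). Ereg changed by -1.14 and -1.95 and Epha2, an ephrin receptor, by -1.45 and -1.23, which in the table was -0.97 without 6 h replicate 3. Enpp2, which makes lysophosphatidic acid, was higher at 12 h than at 6 h in both sources (3.12 and 2.54), although the sources differed in sign at 6 h over 0 h.

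**Figure D5:**
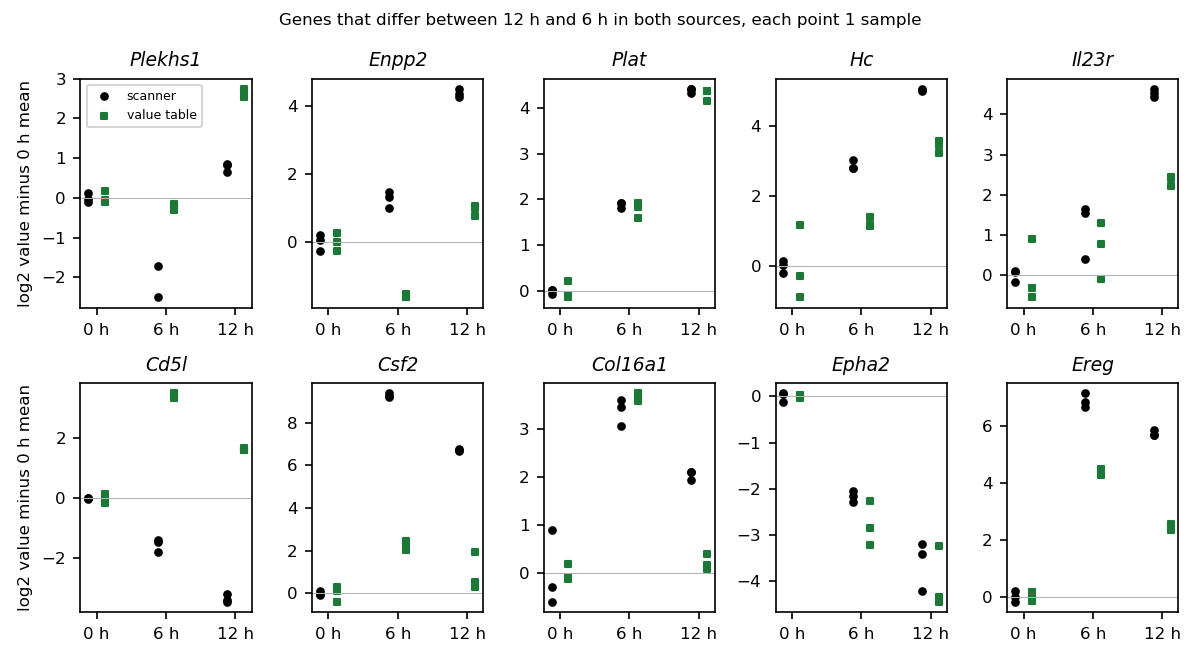
Log2 values of 10 genes at 0, 6 and 12 h minus the mean at 0 h, with black circles for the scanner values and green squares for the value table, 1 point per sample. The upper genes were higher at 12 h than at 6 h in both sources and the lower genes were lower, while Cd5l and Enpp2 differ in sign between the sources at 6 h.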

How the data were processed

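RNA of 12 samples was measured on 1-colour Agilent mouse arrays, and 6 of them, 3 at 6 h and 3 at 0 h, form the comparison. Intensity values were deposited by the authors as scanner output of Agilent Feature Extraction 9.1.3.1, per the file headers. The value table holds a ratio per probe, as deposited by the authors. How the authors made it: not given in the sources used here. Each column was set against the scanner values to find its scale. A log2 scale was used for both after they were deposited by the authors.

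The log2 of the processed signal minus the 75th percentile of the array was the scanner value, and log2 of the ratio, relative to the median at 0 h, that of the table. Control spots (1639) and outlier spots (732) were left out, which left 43379 spots before outliers were removed and 41174 probes, of which 22951 had a gene name. Probes had to be well above background on all arrays of at least 1 group, which kept 23492 probes and 18403 genes, 11578 with a symbol. The highest-signal probe stood for a gene with several kept probes (4151 genes), and in 4 genes probes were called in both directions. The deposited table has a lowest ratio of 0.01.

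Limma 3.58.1, run under R 4.3.3 with the data.table package (version 1.17.8), fitted each source over the samples of all 4 times and 8 residual degrees of freedom, and p-values were adjusted over all genes. The scripts were tested on simulated data. The members and lists (65 lists, 1168 of 1296 genes measured) were chosen with earlier results of these data known. Named genes are the first 25 rises and falls by the smaller change of both sources among genes measured on both sides, the first 10 with a bound, the first 10 called in opposite directions, the first 5 of each direction in 1 source alone and at 12 h against 6 h, and up to 5 rises and 5 falls of each list. Others were named as defining markers or for members that did not pass, and a few are not reported here. The correlation of deviations of samples with the same number at 6 h and 0 h was -0.0386, 0.0058 and -0.0326 in the scanner values and -0.0405, -0.0211 and 0.0388 in the table. This measure did not match samples of the same label across the sources either (r of -0.0621 to 0.0914 at 6 h). It therefore cannot show whether the numbers pair the samples. Background correction with normexp used the median signals, since the files used here have no mean-signal column. Alternatives were other scalings, filters, thresholds, the slide or the replicate number as a block, and each sample left out.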

Additional observations from a re-analysis of the deposited data

How the results depend on the processing

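No called change of a named gene turned its sign under the alternatives run, while 13 changes short of the threshold did under 1 or more, such as Il23r in the table (0.66, and -0.22 with quantile normalization). With normexp background correction and quantile normalization the scanner values gave 1054 genes higher and 1536 lower at 6 h than at 0 h, against 1871 and 2929. With quantile normalization the value table gave 1106 higher and 1591 lower, against 2438 and 2170. With a 4-fold threshold 406 genes were higher in both sources, 273 lower in both and 8 opposite, and with no fold threshold 4668, 4463 and 1309. The cause of the shifts under normalization was not tested. Centring on the median gave 2274 higher and 2446 lower in the scanner values, 2010 and 2563 in the table, and 1204, 1494 and 89 in both. Without the samples labelled 24 h the counts in both were 1206, 1439 and 83, and without the filter on dim probes 1256, 1515 and 90.

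When each sample was left out in turn, the scanner values gave 1826 to 1943 higher and 2812 to 3009 lower, and the value table gave 2339 to 2556 and 2066 to 2209. In both sources 1173 to 1242 genes were higher, 1373 to 1451 lower and 80 to 97 opposite, and at 12 h against 6 h 54 to 59 higher and 16 to 23 lower. Whether the replicate numbers pair the samples is not known. With a replicate block 1217 genes were higher in both, 1440 lower and 84 opposite, with 58 and 19 at 12 h against 6 h. Among results of single named genes over the alternatives, 73 of the scanner and 102 of the table missed the threshold and 2 of the table passed it anew. The slide cannot be told from the time at 6 h except through 6 h replicate 1. Low signal over background limits the genes given as bounds. Counts of list members under other scalings, and of lists without each replicate, were added after seeing the data, as were counts without members not well above background in either group. With normexp and quantile normalization of the scanner values alone 799 genes were higher and 760 lower in both, and with quantile normalization of the table alone 754 and 1121. The median change of all genes was 0.0798 with centring in the scanner values, and 0.00616 with centring and 0.0203 with quantile normalization in the table, against -0.0592 and 0.139. List medians near 0 turned sign too, such as that of integrins and adhesion in the scanner values (0.08, and -0.32 with quantile normalization). With normexp and quantile normalization the members lower in both were 5, against 8, for C-type lectins and Fc receptors and 5, against 10, for DNA repair, and those higher 4, against 7, for immediate early genes. With quantile normalization of the value table they were 4, and with its centring 12, against 7, lower for mitosis, and 6, against 10, higher for antibacterial products.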
